A study of Homo sapiens with 6 samples.

Results

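Of the 41 genes of the nucleolus and of ribosome production examined here, 32 could be measured, and all 32 had a lower mean signal in NCI-H929 myeloma cells given siRNA to RRM1 than in cells given scramble siRNA. Of these, 13 passed the test as lower, where 7.33% of all tested genes did, and 0 as higher, where 8.22% did. All 13 calls were lost when siRRM1 replicate 2 was left out. That fit leaves 1 siRRM1 array, and a smaller share of all tested genes was lower in it too. The fallen genes were mainly factors of the small-subunit processome and of large-subunit assembly, and their levels were 64.2% to 75.7% of those in scramble cells. With siRNA to RRM2, 30 of the 32 had a lower mean, where 50.7% of all tested genes did. There 0 passed the test as lower, where 0.517% of all tested genes did, and 0 as higher, where 2% did.

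The members were chosen by name, as genes known for transcribing, modifying, cutting and assembling the ribosome in the nucleolus. The rule itself uses no measured value, but earlier results of these data were known when the members were chosen. Of the 41, 32 had at least 1 probe set of their own on the array, 48 probe sets in all, and all 32 passed the filter on dim signals. NOP56, DKC1, BOP1 and PPAN were reached only by probe sets annotated to several genes and are not named from them. LYAR, NOB1, DDX18, EBNA1BP2 and GNL3 were not analysed here. The 32 were tested within all 7936 genes that passed the same filter.

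NCI-H929 is an established human line of malignant plasma cells. There were 2 arrays from cells electroporated with siRNA against RRM1 (siRRM1), 2 from cells with siRNA against RRM2 (siRRM2), and 2 from cells with a non-targeting scramble siRNA, and RNA was taken at 24 h in all of them. RRM1 and RRM2 encode the large and small subunits of ribonucleotide reductase, the enzyme that makes deoxynucleotides for DNA synthesis. The design asked how each knockdown changed gene expression relative to scramble cells. The labels do not mention separate cultures for these arrays, so the p-values measure only the spread between these arrays, which may be technical. In RNA from a whole culture, fewer cells of a kind and less RNA per cell cannot be told apart.

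Ribosome production starts in the nucleolus, where RNA polymerase I transcribes a long precursor of the ribosomal RNAs. Small nucleolar ribonucleoproteins modify that precursor, and the small-subunit processome, built around the U3 small nucleolar RNA, folds and cuts its small-subunit part. A separate set of assembly factors builds the large subunit before export to the cytoplasm. Plasma cells make much secreted protein and depend on this supply, and MYC is known as an activator of many of these genes.

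The targets were checked first. RRM1 had log2 signals of 8.93 and 7.99 in siRRM1 arrays, 11.11 and 11.38 in siRRM2 arrays and 11.06 and 11.11 in scramble arrays. RRM2 had 10.54 and 11.44 in siRRM2 arrays, 12.92 and 13.12 in siRRM1 arrays and 12.78 and 12.78 in scramble arrays. Each target was therefore lower in the arrays labelled with its own siRNA, and the 2 arrays of each knockdown differed in how low it was. All 9 plasma cell and myeloma markers were above the filter, with list means of 10.74 and 10.62 in siRRM1 arrays, 11.08 and 10.98 in siRRM2 arrays and 11.00 and 11.01 in scramble arrays. In siRRM1 cells 2 of the 9, FGFR3 and IRF4, passed as lower, where 7.33% of all tested genes did. All 9 had both siRRM1 arrays below both scramble arrays, against 30.9% of all tested genes, with a median log2 difference of −0.31. The T cell, B cell and epithelial lists had 1 of 4, 1 of 3 and 2 of 5 above it. Among 6 myeloid markers, S100A8, S100A9 and CSF1R were above the filter and rose in siRRM1 cells, while CD14, LYZ and ITGAM were below it. The filter used the mean over all arrays, and S100A8 passed it only through the knockdown arrays. S100A8 had 7.88 and 9.46 in siRRM1 arrays, 6.53 and 8.23 in siRRM2 arrays and 4.45 and 4.44 in scramble arrays. The mean log2 signal of that list was 5.88 and 6.48 in siRRM1 arrays, 5.30 and 5.83 in siRRM2 arrays and 4.74 and 4.80 in scramble arrays. Of 5 stromal markers 3 were above the filter, and ACTA2 and FN1 rose in siRRM1 cells. ACTA2 also rose in siRRM2 cells (log2 difference 1.31, limma adjusted p = 0.00408). The 3′ minus 5′ log2 difference of the ACTB control probe sets was 0.03 and 0.33 in siRRM1 arrays, 0.05 and 0.05 in siRRM2 arrays and 0.34 and 0.15 in scramble arrays. These values move partly with the groups, and their part in the results on the members was not tested.

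The promoters of several members share short motifs, shown here because these genes are often described as MYC targets. MYC and MAX bind the canonical E-box CACGTG, which reads the same on both strands. RefSeq windows of 300 bases (250 before and 50 after the start site, build GRCh38.p14) were found for 28 of the 32 measured members, 34 windows in all. NOLC1, RRP12, RRP1B and RRS1 had none. The motif was in the windows of 14 members, and 13 of its 16 matches lay within 40 bases of the start site. The stretches printed here run from 100 bases before to 20 bases after the start, on the gene's strand, for 5 members with the E-box near the start (UTP18, UTP20, RRP9, MRTO4 and FBL) and for 2 with an ETS core there (WDR74 and EMG1). Capitals mark the E-box, or the ETS core CCGGAAGT on either strand. They lie at chr17:51260446-51260565 on the plus strand for UTP18, chr12:101280005-101280124 on the plus strand for UTP20, chr3:51941885-51942004 on the minus strand for RRP9, chr1:19251705-19251824 on the plus strand for MRTO4, chr19:39846360-39846479 on the minus strand for FBL, chr11:62839571-62839690 on the minus strand for WDR74 and chr12:6970813-6970932 on the plus strand for EMG1.
UTP18: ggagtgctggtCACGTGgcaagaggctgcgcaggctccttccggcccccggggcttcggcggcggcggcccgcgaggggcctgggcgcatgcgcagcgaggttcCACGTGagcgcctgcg
UTP20: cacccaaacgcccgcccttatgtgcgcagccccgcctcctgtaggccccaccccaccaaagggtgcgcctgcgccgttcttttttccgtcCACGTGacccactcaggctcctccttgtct
RRP9: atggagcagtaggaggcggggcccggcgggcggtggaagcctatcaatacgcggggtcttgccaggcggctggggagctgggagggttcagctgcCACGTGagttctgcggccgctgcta
MRTO4: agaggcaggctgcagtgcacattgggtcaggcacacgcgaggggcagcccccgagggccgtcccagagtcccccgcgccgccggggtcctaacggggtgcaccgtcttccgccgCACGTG
FBL: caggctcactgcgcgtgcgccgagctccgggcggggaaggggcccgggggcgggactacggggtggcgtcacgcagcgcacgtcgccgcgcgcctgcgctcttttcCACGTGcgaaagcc
WDR74: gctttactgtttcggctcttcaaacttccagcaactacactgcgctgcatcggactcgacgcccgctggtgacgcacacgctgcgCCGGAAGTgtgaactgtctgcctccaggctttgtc
EMG1: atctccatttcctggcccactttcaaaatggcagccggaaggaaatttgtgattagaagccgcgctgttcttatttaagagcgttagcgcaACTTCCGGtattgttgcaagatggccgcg

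E-boxes were in 41.2% of the member windows, against 7.26% of all 35116 windows and 9.64% of the windows of tested genes. Of the members that fell in siRRM1 cells, 6 of 12 with a window had one, and so did 8 of the 16 that did not pass the test. The share was therefore 50% in both sets. The variant CACGCG was in 29.4% of member windows, 11.4% of all windows and 16.8% of the windows of tested genes. The ETS core was in 20.6% of member windows, 4.14% of all windows and 7.26% of the windows of tested genes. All motifs were searched on both strands, and none of them contains another. A match describes only these letters.

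In siRRM1 against scramble cells, 13 of 32 members were lower at an adjusted p under 0.05, where 7.33% of all tested genes were, and 0 were higher, where 8.22% were. With each array centred on its median, 17 members were lower and 0 higher, where 10.3% and 7.21% of all genes were. The fallen members were UTP18, RRS1, WDR74, EMG1, DDX10, RRP9, NIP7, UTP20, TSR1, IMP4, MRTO4, NOP16 and UTP14A, with limma adjusted p between 0.0117 and 0.0314. All 32 differences were below 0, against 51.7% of all genes. The median log2 difference over the 32 was −0.31, against −0.01 over all tested genes. At an unadjusted p under 0.05, 21 members were lower, against 17% of all genes. Both siRRM1 arrays were below both scramble arrays in 27 members, against 30.9% of all genes. All 13 calls were lost without siRRM1 replicate 2, most without scramble replicate 1 and most without scramble replicate 2. Each of these fits leaves 1 array in a group, and without siRRM1 replicate 2 a smaller share of all genes was lower too. Dependence on an array and loss of precision cannot be told apart there. The calls of MRTO4 and UTP14A were also lost without siRRM2 replicate 1 and without siRRM2 replicate 2, arrays outside this comparison. Every member tested was below 0 in 13 of the 15 alternative settings; the exceptions were 31 of 32 without siRRM1 replicate 1 and 30 of 32 without scramble replicate 1.

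**Figure D1:**
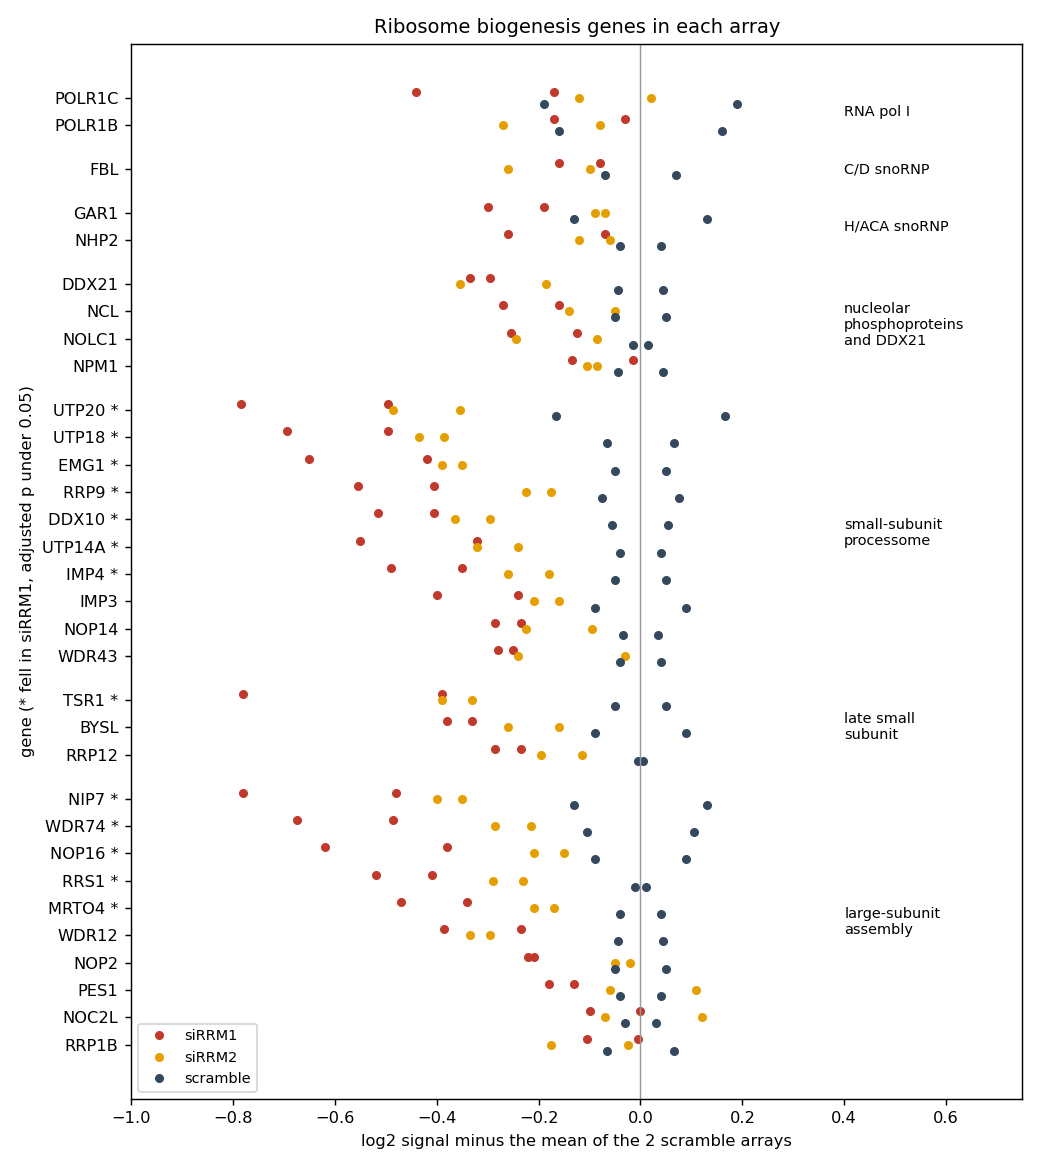
Log2 signal of each of the 32 measured members minus its mean in the 2 scramble arrays (horizontal axis), 1 point an array, with members grouped by role down the page and colours for siRRM1, siRRM2 and scramble. Replicate 2 of siRRM1 is the lowest point in 22 members, and an asterisk marks the 13 that fell in siRRM1 cells.

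Among the 6 arrays, siRRM1 replicate 2 held the lowest value in 22 members and siRRM1 replicate 1 in 6. No scramble array was lowest for any member. Scramble replicate 1 was highest in 20 members and scramble replicate 2 in 10. Replicate 2 of siRRM1 also had the lower RRM1 signal and the higher myeloid list mean of the siRRM1 arrays. Its 3′ minus 5′ log2 difference was the highest of the 6 arrays for some control probe sets. For AFFX-HUMISGF3A it was 3.57, against 2.78 to 3.24 in the others, and for AFFX-PheX 1.97, against 1.34 to 1.65. Its median over all 21 controls was 0.33, within the 0.28 to 0.34 of the other arrays. The part of these traits in the members' values was not tested. The median member deviated from its scramble mean by −0.28 and −0.38 log2 in siRRM1 arrays, −0.22 and −0.18 in siRRM2 arrays and 0.04 and −0.04 in scramble arrays.

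The small-subunit processome held the largest share of fallen members, 7 of 10 where 7.33% of all tested genes were lower, with a median log2 difference of −0.45 in siRRM1 against scramble cells. All 10 had both siRRM1 arrays below both scramble arrays, where 30.9% of all tested genes did. All 7 calls were lost without siRRM1 replicate 2, most without scramble replicate 1 and most without scramble replicate 2. Each of these fits leaves 1 array in a group. Without siRRM1 replicate 2 a smaller share of all tested genes was lower too. UTP20, a large scaffold protein of the processome, had log2 signals of 8.20 and 7.91 in siRRM1 arrays, 8.34 and 8.21 in siRRM2 arrays and 8.86 and 8.53 in scramble arrays. Its siRRM1 level was 64.2% of that in scramble (log2 difference −0.64, SE 0.14, limma adjusted p = 0.0256), the largest fall among the members.

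UTP18, a subunit that helps bring the RNA exosome to the precursor, had log2 signals of 9.88 and 9.68 in siRRM1 arrays, 9.99 and 9.94 in siRRM2 arrays and 10.44 and 10.31 in scramble arrays. All 4 knockdown arrays were below both scramble arrays. Its log2 signal fell by 0.59 with siRRM1 (SE 0.10, adjusted p = 0.0117), the smallest adjusted p among the members. Its other probe set, below the filter, gave −0.20 with overlapping arrays, and with the mean of both the difference was −0.40 and the call was lost (adjusted p = 0.134). In siRRM2 cells the difference was −0.41 (adjusted p = 0.0868), the smallest adjusted p of any member there. It did not pass, except with the replicate number as a block. Its printed promoter carries an E-box 89 bases before the start and another 4 bases after it.

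EMG1, a methyltransferase of small-subunit ribosomal RNA, had 9.50 and 9.27 in siRRM1 arrays, 9.53 and 9.57 in siRRM2 arrays and 9.87 and 9.97 in scramble arrays. The groups did not overlap, and the siRRM1 difference was −0.54 (SE 0.11, adjusted p = 0.0173). RRP9, a protein that binds the U3 RNA, had 7.28 and 7.13 in siRRM1 arrays, 7.51 and 7.46 in siRRM2 arrays and 7.61 and 7.76 in scramble arrays. Both siRRM1 arrays were again lowest, and its siRRM1 difference was −0.48 (SE 0.10, adjusted p = 0.0204), with −0.20 in siRRM2 cells (adjusted p = 0.315).

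DDX10, a putative RNA helicase and the counterpart of yeast Dbp4, had 10.21 and 10.10 in siRRM1 arrays, 10.25 and 10.32 in siRRM2 arrays and 10.67 and 10.56 in scramble arrays. All 4 knockdown arrays were below both scramble arrays, and the siRRM1 difference was −0.46 (SE 0.09, adjusted p = 0.0176). UTP14A, which activates a helicase of the processome, had 10.38 and 10.15 in siRRM1 arrays, 10.38 and 10.46 in siRRM2 arrays and 10.74 and 10.66 in scramble arrays, a difference of −0.44 in siRRM1 cells (adjusted p = 0.0314). IMP4, of the U3 particle, had 10.08 and 9.94 in siRRM1 arrays, 10.17 and 10.25 in siRRM2 arrays and 10.38 and 10.48 in scramble arrays (siRRM1 difference −0.42, adjusted p = 0.0263).

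The 3 processome members that did not pass had the same order of group means, siRRM1 lowest and scramble highest. IMP3, a partner of IMP4, had 9.86 and 9.70 in siRRM1 arrays, 9.89 and 9.94 in siRRM2 arrays and 10.01 and 10.19 in scramble arrays, with an adjusted p of 0.0769 in siRRM1 cells. WDR43, a WD-repeat subunit of the processome, had 8.99 and 9.02 in siRRM1 arrays, 9.03 and 9.24 in siRRM2 arrays and 9.31 and 9.23 in scramble arrays. NOP14 had 9.04 and 8.99 in siRRM1 arrays, 9.05 and 9.18 in siRRM2 arrays and 9.31 and 9.24 in scramble arrays. Their siRRM1 differences of −0.32, −0.26 and −0.26 did not pass the test.

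Of the late small-subunit factors, 1 of 3 fell, again beside 7.33% of all tested genes. TSR1, which sits on the nascent small subunit in the cytoplasm, had 9.62 and 9.23 in siRRM1 arrays, 9.62 and 9.68 in siRRM2 arrays and 10.06 and 9.96 in scramble arrays. Replicate 2 of siRRM1 was well below every other array, and the siRRM1 difference was −0.58 (SE 0.13, adjusted p = 0.0259). BYSL, a factor needed for small-subunit maturation, had 8.90 and 8.85 in siRRM1 arrays, 9.07 and 8.97 in siRRM2 arrays and 9.14 and 9.32 in scramble arrays and was just outside the threshold (adjusted p = 0.0512). RRP12 had 7.55 and 7.60 in siRRM1 arrays, 7.72 and 7.64 in siRRM2 arrays and 7.84 and 7.83 in scramble arrays (siRRM1 difference −0.26, adjusted p = 0.0804). Its other probe sets disagreed in sign, with siRRM1 differences of −0.32 and, below the filter, 0.33.

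Of the 10 large-subunit members, 5 fell in siRRM1 cells, beside the same 7.33% of all tested genes, and the median difference was −0.35. All 5 calls were lost without siRRM1 replicate 2, most without scramble replicate 1 and most without scramble replicate 2. These fits leave 1 array in a group, and without siRRM1 replicate 2 a smaller share of all tested genes was lower too. NIP7, an assembly factor that binds precursor RNA, had 8.95 and 8.65 in siRRM1 arrays, 9.03 and 9.08 in siRRM2 arrays and 9.56 and 9.30 in scramble arrays (siRRM1 difference −0.63, SE 0.13, adjusted p = 0.0205). WDR74, a WD-repeat factor of early large-subunit precursors, had 9.22 and 9.03 in siRRM1 arrays, 9.42 and 9.49 in siRRM2 arrays and 9.60 and 9.81 in scramble arrays (difference −0.58, SE 0.11, adjusted p = 0.0161). The siRRM1 arrays were lowest and the scramble arrays highest for both genes.

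RRS1, a factor needed to install the small ribosomal RNA of the large subunit, had 11.03 and 10.92 in siRRM1 arrays, 11.15 and 11.21 in siRRM2 arrays and 11.45 and 11.43 in scramble arrays (siRRM1 difference −0.47, SE 0.09, adjusted p = 0.0146). MRTO4, which holds the place of the ribosomal stalk protein during assembly, had 9.65 and 9.52 in siRRM1 arrays, 9.78 and 9.82 in siRRM2 arrays and 9.95 and 10.03 in scramble arrays (siRRM1 difference −0.40, SE 0.09, adjusted p = 0.0266). NOP16, a nucleolar protein of large-subunit precursors, had 11.08 and 10.84 in siRRM1 arrays, 11.31 and 11.25 in siRRM2 arrays and 11.55 and 11.37 in scramble arrays (siRRM1 difference −0.50, SE 0.11, adjusted p = 0.0269). All 3 genes had siRRM1 lowest and scramble highest. For NOP16 the probe sets disagreed in sign: the others gave −0.62, 0.31 and 0.19 in siRRM1 cells, none of which passed the test, and the gene's call was lost when its probe sets were averaged.

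The remaining large-subunit members named by the rule did not pass. WDR12, a member of the PeBoW complex, had 10.24 and 10.09 in siRRM1 arrays, 10.14 and 10.18 in siRRM2 arrays and 10.52 and 10.43 in scramble arrays, with like differences of −0.30 and −0.31. NOP2, an RNA methyltransferase, had 8.36 and 8.35 in siRRM1 arrays, 8.52 and 8.55 in siRRM2 arrays and 8.52 and 8.62 in scramble arrays. PES1, another PeBoW member, had 9.14 and 9.19 in siRRM1 arrays, 9.43 and 9.26 in siRRM2 arrays and 9.28 and 9.36 in scramble arrays. NOC2L and RRP1B both had a siRRM1 difference of −0.05, the smallest in size of all members.

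In siRRM1 cells, 0 of 2 RNA polymerase I subunits and 0 of 4 nucleolar phosphoproteins with DDX21 passed the test in either direction. For small nucleolar ribonucleoprotein components it was 0 of 1 (C/D box) and 0 of 2 (H/ACA). Over all tested genes 7.33% were lower and 8.22% higher, and groups this small cannot show a different share. The group medians of the log2 difference ran from −0.20 to −0.12. POLR1C, a subunit shared by polymerases I and III, had 8.66 and 8.39 in siRRM1 arrays, 8.85 and 8.71 in siRRM2 arrays and 9.02 and 8.64 in scramble arrays. POLR1B, of the polymerase core, had 6.90 and 6.76 in siRRM1 arrays, 6.85 and 6.66 in siRRM2 arrays and 7.09 and 6.77 in scramble arrays. Knockdown and scramble arrays overlapped for both genes, and for POLR1C both siRRM1 arrays were below both siRRM2 arrays.

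FBL, the methyltransferase of C/D box particles, had 11.92 and 11.84 in siRRM1 arrays, 11.74 and 11.90 in siRRM2 arrays and 11.93 and 12.07 in scramble arrays (siRRM1 difference −0.12, adjusted p = 0.458). Its promoter stretch printed earlier holds an E-box 6 bases after the start. The H/ACA proteins GAR1 and NHP2 had siRRM1 differences of −0.24 and −0.17. GAR1 had 10.15 and 10.04 in siRRM1 arrays, 10.27 and 10.25 in siRRM2 arrays and 10.47 and 10.21 in scramble arrays. NHP2 had 12.72 and 12.53 in siRRM1 arrays, 12.73 and 12.67 in siRRM2 arrays and 12.83 and 12.75 in scramble arrays. These proteins form the particles that turn uridines of ribosomal RNA into pseudouridine.

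DDX21, a nucleolar RNA helicase, was nearest to the threshold in this set, with 11.28 and 11.32 in siRRM1 arrays, 11.26 and 11.43 in siRRM2 arrays and 11.66 and 11.57 in scramble arrays (siRRM1 difference −0.31, adjusted p = 0.0653; siRRM2 −0.27, adjusted p = 0.181). Its 4 knockdown arrays were below both scramble arrays. NCL, or nucleolin, had 12.34 and 12.23 in siRRM1 arrays, 12.45 and 12.36 in siRRM2 arrays and 12.55 and 12.45 in scramble arrays. NOLC1, a phosphoprotein that binds small nucleolar particles, had 11.53 and 11.66 in siRRM1 arrays, 11.54 and 11.70 in siRRM2 arrays and 11.77 and 11.80 in scramble arrays. NPM1, the abundant histone and ribosomal protein chaperone, had a siRRM1 difference of −0.07, and its other probe sets gave −0.24 and −0.28.

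Over single probe sets, 45 of the 48 had a siRRM1 difference below 0, and 15 passed the test as lower, against 5.72% of all 13366 probe sets tested. In siRRM2 against scramble cells 0 of them passed as lower, against 0.202% of probe sets, and 0 in siRRM1 against siRRM2 cells, against 0.015%. WDR74 and TSR1 each had another probe set that passed as lower, at −0.47 for both. The remaining TSR1 probe set, also above the filter, gave −0.05 (adjusted p = 0.81) and did not pass. The 9 probe sets that members share with other genes, which name no member, gave siRRM1 differences of −0.56 to −0.23, and 5 of them passed as lower.

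In siRRM2 against scramble cells, 0 of 32 members passed the limma test as lower, where 0.517% of all tested genes did, and 0 as higher, where 2% did. Of the 32 differences 30 were below 0, against 50.7% of all genes. At an unadjusted p under 0.05, 10 were lower, against 8.8% of all genes, and 0 were higher, against 11.6%. The median log2 difference was −0.19, and differences ranged from −0.42 to 0.03. Both siRRM2 arrays were below both scramble arrays in 24 members, against 27.7% of all genes. For the 13 members that fell in siRRM1 cells, the siRRM2 differences ran from −0.42 to −0.18. With the replicate number as a block, UTP18 and UTP20 passed as lower in siRRM2 cells. The block also raised the share of all tested genes that were lower in siRRM1 cells. The arrays share only replicate numbers, which are too few to show pairing. Both knockdowns are compared with the same scramble arrays.

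**Figure D2:**
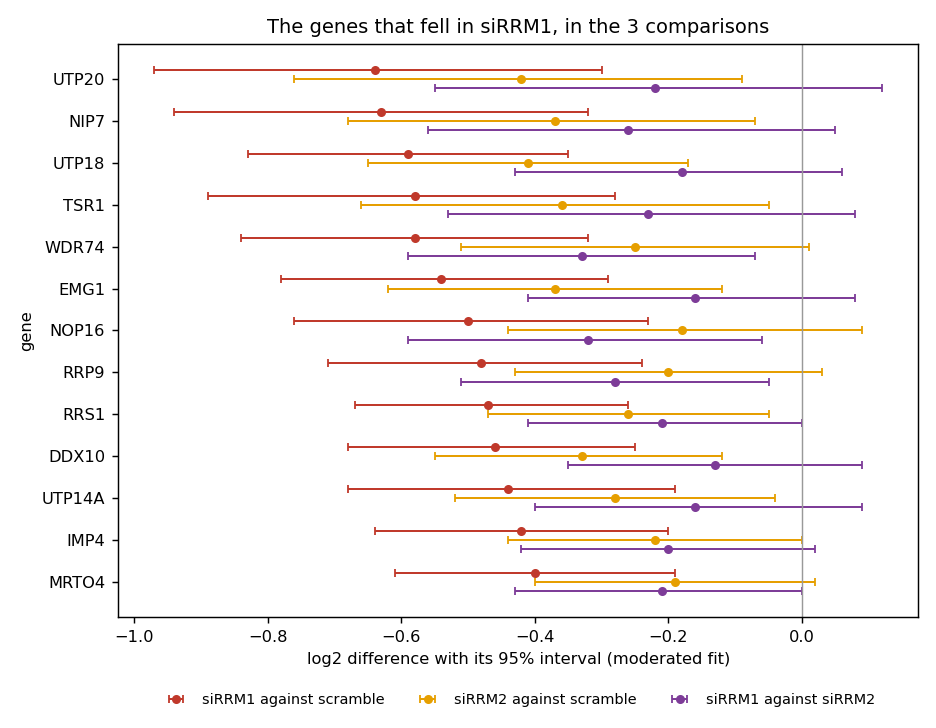
Log2 differences with 95% confidence intervals for the 13 members that fell in siRRM1 cells, in each knockdown against scramble and between the knockdowns. The siRRM1 against scramble values run from −0.64 to −0.40 and the siRRM2 against scramble values from −0.42 to −0.18.

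In siRRM1 against siRRM2 cells, 0 of 32 members passed as lower, where 0.0378% of tested genes did, and 0 as higher, where 0.126% did. At an unadjusted p under 0.05, 4 were lower, against 4.88% of all genes, namely WDR74, NOP16, RRP9 and RRS1, and 0 were higher, against 5.17%. Of the 32, 27 had a lower mean in siRRM1 cells, against 52.3% of all genes, and the median difference was −0.15. WDR74 had the smallest adjusted p, 0.394, with a difference of −0.33 and a 95% confidence interval of −0.59 to −0.07. Both siRRM1 arrays were below both siRRM2 arrays in 23 members, against 21.8% of all genes. The 3 groups lay in the order siRRM1, siRRM2, scramble with no overlap in 18 members, against 8.43% of all genes, and all 4 knockdown arrays were below both scramble arrays in 23, against 21.3%.

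**Figure D3:**
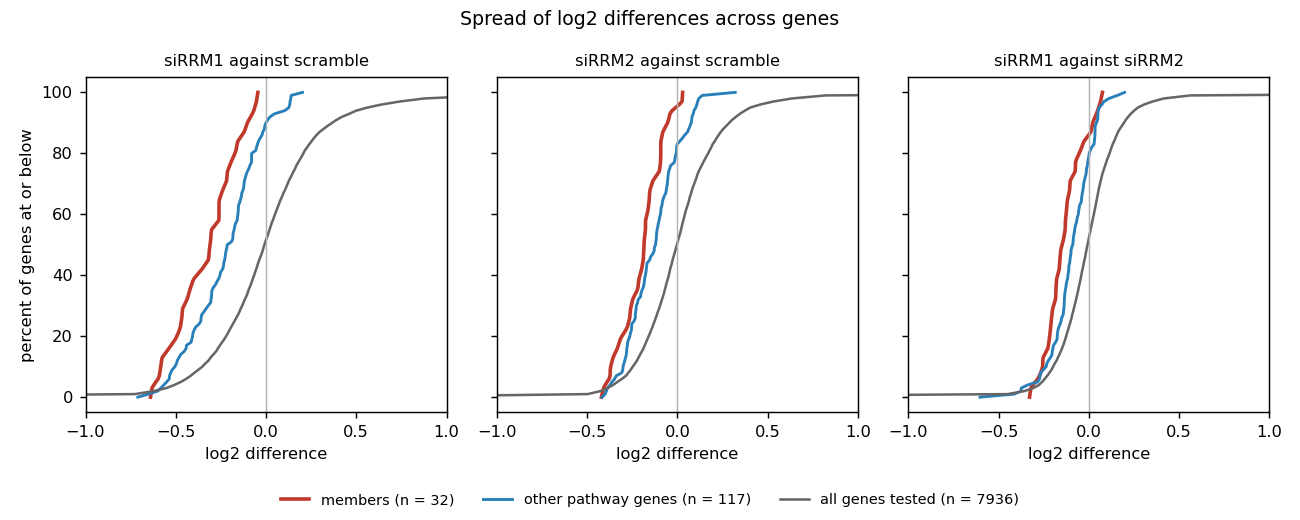
Cumulative share of genes (percent, vertical axis) at or below each log2 difference (horizontal axis) for the 32 members, 117 other pathway genes and all 7936 genes tested, in the 3 comparisons. The curve of the members lies to the left of the curve of all genes through most of its range in each panel.

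**Figure D4:**
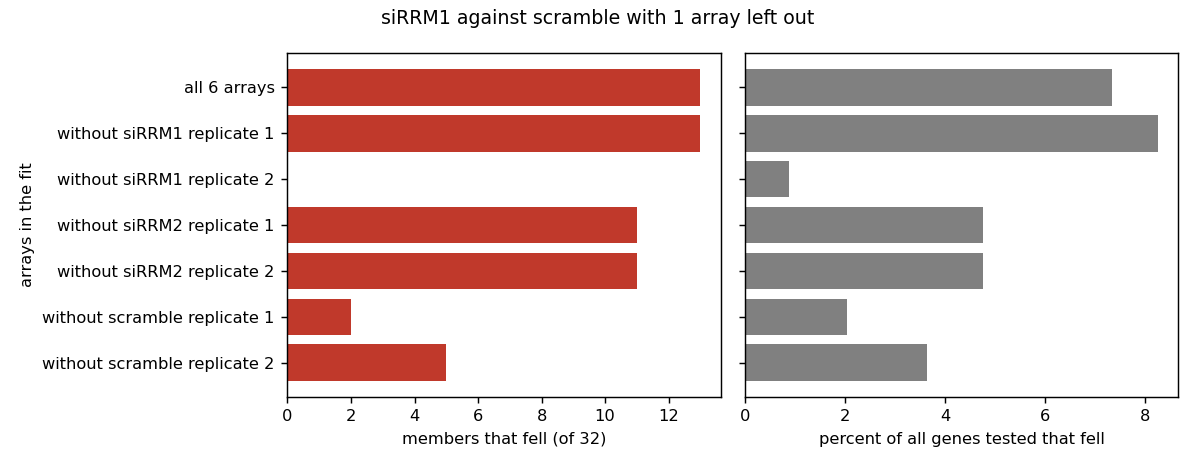
Number of members, of 32, called lower in siRRM1 against scramble cells with all 6 arrays and with each array left out in turn (left, horizontal bars), and the percent of all tested genes that were lower in the same fits (right). The count is 13 with all arrays and 0 without siRRM1 replicate 2.

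A wider list of 145 other genes of ribosome production, 120 of them on the array and 117 tested, was counted in the same fit. In siRRM1 against scramble cells, 17 were lower (14.5%, against 7.33% of all tested genes) and 0 higher, where 8.22% were. The median difference was −0.21, and 105 of 117 were below 0, against 51.7% of all tested genes. Few of these genes passed without siRRM1 replicate 2 or without scramble replicate 1, fits that leave 1 array in a group. Without siRRM1 replicate 2 a smaller share of all tested genes was lower too. By sub-list, those lower were 2 of 17 for RNA polymerase I machinery, 1 of 9 for small nucleolar particles, 5 of 24 for the processome, 0 of 6 for late small-subunit factors, 8 of 42 for large-subunit factors and 1 of 19 for nucleases.

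POP5, a subunit of RNase P and RNase MRP, had 9.43 and 9.43 in siRRM1 arrays, 9.74 and 9.87 in siRRM2 arrays and 10.01 and 10.05 in scramble arrays (siRRM1 difference −0.60, SE 0.09, adjusted p = 0.0068). RRP15 had 8.79 and 8.57 in siRRM1 arrays, 8.98 and 8.93 in siRRM2 arrays and 9.40 and 9.28 in scramble arrays (difference −0.66, adjusted p = 0.00809). RUVBL1, an ATPase that helps assemble small nucleolar particles, had 9.38 and 9.16 in siRRM1 arrays, 9.43 and 9.46 in siRRM2 arrays and 9.83 and 9.78 in scramble arrays (difference −0.54, adjusted p = 0.0147). For all 3, siRRM1 was lowest and scramble highest. In siRRM2 against scramble cells, 0 of the 117 passed as lower, where 0.517% of all genes did, and 0 as higher, where 2% did. Their median was −0.12. At an unadjusted p under 0.05, 24 were lower and 1 higher, against 8.8% and 11.6% of all tested genes. In siRRM1 against siRRM2 cells 0 passed as lower, against 0.0378% of all tested genes, and 0 as higher, against 0.126%. Their median was −0.09, and 8 were lower and 0 higher at the unadjusted level, against 4.88% and 5.17% of all tested genes.

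Of 10 tested genes of the MYC network, 0 passed the limma test in any comparison. Among all tested genes, 7.33% passed as lower and 8.22% as higher in siRRM1 against scramble cells. The shares were 0.517% and 2% in siRRM2 against scramble cells and 0.0378% and 0.126% between the knockdowns. A list of 10 genes cannot show a smaller share than these. At an unadjusted p under 0.05, 1 was lower in siRRM1 against scramble cells (17% of all tested genes), 1 was higher in siRRM2 against scramble cells (11.6%) and 2 were lower in siRRM1 against siRRM2 cells (4.88%). MYC had log2 signals of 8.96 and 8.47 in siRRM1 arrays, 9.23 and 8.99 in siRRM2 arrays and 8.89 and 8.82 in scramble arrays. Its 2 siRRM1 arrays lay on either side of the scramble arrays (siRRM1 difference −0.14, adjusted p = 0.599), and the siRRM2 difference was 0.25 (adjusted p = 0.434). MGA, a partner of MAX, had a siRRM1 difference of −0.41 (adjusted p = 0.0645), and MXD3, a MAX-binding repressor, had 0.36 in siRRM1 and 0.39 in siRRM2 cells (adjusted p = 0.175 and 0.232). MAX, MNT and MXI1 had siRRM1 differences of −0.06, −0.02 and −0.03.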

How the data were processed

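The 6 arrays (2 siRRM1, 2 siRRM2, 2 scramble) were Affymetrix expression arrays of 22277 probe sets. The authors deposited log2 signals per probe set; their summarisation and normalisation are not given in the sources used here, and they were used with no further scaling. Array medians lay between 6.11 and 6.16. In the platform's annotation, 19070 probe sets carry 1 symbol, 1043 several and 2164 none, and 19058 of the first matched RefSeq. The number of arrays limits the precision.

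Each gene took its single-symbol probe set with the highest mean, and genes at or above the 40th percentile of signal (log2 5.4417) were kept, 7936 in all. Groups were compared with limma 3.58.1 (lmFit and eBayes, all 6 arrays) in R 4.3.3, with Benjamini-Hochberg adjustment over all genes tested and a threshold of 0.05; a second fit used all 13366 probe sets above the filter. The fit was tested on simulated data. Alternatives changed scaling, filter, probe set choice, the fit and the arrays. Values in every array are given for members past the threshold, up to 3 more per role group by size of the siRRM1 difference, and members whose probe sets disagree in sign; up to 3 fallen or risen other pathway genes are named by adjusted p. The members and lists were chosen with earlier results of these data known.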

Additional observations from a re-analysis of the deposited data

How the results depend on the processing

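Of the 32 members, 13 were lower in siRRM1 against scramble cells. In the 9 alternatives that kept all arrays the count ran from 9 to 17, always with 0 higher, and with 1 array left out it ran from 0 to 13; the cause was not tested. Each of the 13 calls was lost without siRRM1 replicate 2 and in at least 1 fit without a scramble array. Such fits leave 1 array in a group. The calls of NOP16 and UTP18 were also lost with averaged probe sets. Those of MRTO4 and UTP14A were also lost with the compared groups' arrays alone and without each siRRM2 array in turn. Every member tested stayed below 0 in 13 of the 15 settings, with 31 of 32 without siRRM1 replicate 1 and 30 of 32 without scramble replicate 1. Leaving out probe sets ending in _x_at or _s_at left 18 members to test. Scramble and knockdown arrays share only replicate numbers: same-numbered arrays deviated together with correlations of 0.38, 0.36 and 0.21, but 2 numbers are too few to show pairing. With the replicate number as a block, 17 members were lower in siRRM1 and 2 (UTP18 and UTP20) in siRRM2 cells, against 13 and 0 without it. Among the other pathway genes, 17 were lower in siRRM1 cells; the count was 29 with each array centred on its median, 26 with a filter at the 60th percentile and 36 with the block, and ran from 1 to 23 with 1 array left out. In siRRM2 cells it was 0, but 1 with the mean of a gene's probe sets and 2 with the block. Counts for the other pathway genes were an alternative chosen after seeing the data. In siRRM1 against siRRM2 cells, 0 members passed in any setting. Centring raised the share of all genes lower in siRRM1 cells to 10.3%, and the replicate block to 12.2%. The number of arrays limits the precision, and all 32 members lay above the signal filter.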
